A study of Caenorhabditis elegans with 6 samples.

Results

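The 82 histone gene rows of the count table were compared between div-1 mutant and wild-type larvae of the nematode Caenorhabditis elegans. Members were taken by name alone, as every row called his- or hil- with a number, together with htz-1 and htas-1, out of 45836 gene rows. Of these, 64 encode replicative core histones, namely his-1 to his-68 without his-24 and his-35. The other 18 comprise 9 variants (his-35, his-69 to his-74, htz-1 and htas-1) and 9 linkers (his-24 and hil-1 to hil-8). The name rule itself uses no measured value. No gene sequence or genome sequence was used here, so none is shown.

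Core histones H2A, H2B, H3 and H4 form the protein spool of the nucleosome, and their replicative genes are transcribed mainly in S phase, when new DNA must be packaged. In animals, transcripts of these genes usually end in a stem-loop in place of a poly(A) tail, and in C. elegans the stem-loop is bound by CDL-1 and the processing of these messengers also needs the small RNA pathway of CSR-1. Variants such as H2A.Z and H3.3 are deposited outside S phase as well, and H1 linkers sit on the DNA between nucleosomes.

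There were 3 libraries of the div-1 mutant and 3 of the wild type, called biological replicates in the labels. The mutant libraries came from strain BCN6101, made from EU548 with the div-1(or148) allele and a transgene with mCherry under the daf-21 promoter. The wild-type libraries came from strain BCN1050, in the N2 background, which carries the same type of daf-21 promoter reporter. div-1 encodes a subunit of DNA polymerase alpha-primase, the enzyme that starts DNA strands. Each library was made from many whole L1 larvae, the first larval stage, hatched overnight at 20 °C in a salt buffer after their mothers were bleached. The sample titles call the material mRNA. Adapters were ligated to the RNA with a kit for small RNA, and inserts of 18 to 36 bases were cut from a gel and read for 50 cycles. The series title concerns impaired DNA replication and chromatin, and the comparison described here asks how transcripts of the histone family stood in the mutant.

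Libraries held 25051167 to 27632878 counts in total. Levels are given as CPM, counts per 1000000 counts after scaling, and ± is the SD over 3 libraries of a group. div-1 itself stood at 44.7, 29.3 and 31.1 CPM in the mutant and 24.5, 30.2 and 43.2 CPM in the wild type, which does not check a point allele. mut-16, a scaffold of the mutator small RNA pathway named after its values were seen, stood at 6.51 ± 1.84 CPM in the mutant and 51.9 ± 1.46 CPM in the wild type (log2 fold change -2.99, edgeR adjusted p = 0.0020). The div-1 allele and this difference are found in the same libraries and cannot be told apart as sources of any value below. Marker genes of body wall muscle, intestine, epidermis and neurons had counts in all cases (4, 5, 4 and 5 genes, with none called). Of 14 markers of early embryos and maternal RNA, 13 had a positive log2 fold change, where 46% of all genes tested did. The summed level of the 14 was 425 to 501 CPM in mutant libraries and 349 to 476 CPM in wild-type libraries. Most of that sum was skn-1, at 296 ± 33.9 CPM in the mutant and 242 ± 18.2 CPM in the wild type. None of those 14 was called or at 0. Of 11 markers of spermatogenesis, 7 were tested and spe-41 was called, at 2.40 ± 0.562 CPM in the mutant and 0.544 ± 0.0871 CPM in the wild type (edgeR adjusted p = 0.0240), and 4 of the 7 (spe-41, fer-1, spe-9 and gsp-4) lay higher in every mutant library than in any wild-type library, where 0.884% of all genes tested were called higher and 10.2% lay apart in this way. fer-1 stood at 4.37 ± 1.29 CPM in the mutant and 2.21 ± 0.215 CPM in the wild type, and over all 7 the log2 fold changes had a median of 0.49. The list's summed level was 31.6 to 39.7 CPM in mutant libraries and 31.2 to 37.6 CPM in wild-type libraries, most of it spe-15, at 24.5 ± 2.07 CPM in the mutant and 27.4 ± 1.92 CPM in the wild type. spe-4 ran the other way, at 0.899 ± 0.352 CPM in the mutant and 1.70 ± 1.79 CPM in the wild type (log2 fold change -0.92, edgeR adjusted p = 0.704). gsp-4, spe-15 and spe-4 were named after their values were seen. The 8 markers of primordial germ cells, none called, summed to 46.6 to 79.1 CPM in mutant libraries and 51.3 to 72.3 CPM in wild-type libraries. The part of these cell types in the histone results was not tested. In bulk RNA from whole animals, fewer cells of a type and less RNA per cell cannot be told apart.

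No histone gene was called as changed. 28 members had enough counts to be tested, and 0 of 28 passed an adjusted p of 0.05 in edgeR, where 0.896% of all 16289 genes tested were called (0.884% higher and 0.0123% lower in the mutant). At an unadjusted p under 0.05, 1 member was higher (his-73) and 6 were lower (his-67, his-25, his-32, his-41, his-4 and his-3), against 8.26% of all genes higher and 2.44% lower. DESeq2 called 0 of 38 members that it tested, with 8 at an unadjusted p under 0.05, where it called 2.7% of 17910 genes and 10.7% had an unadjusted p under 0.05. The 3 mutant libraries lay below the 3 wild-type libraries for 6 members (his-67, his-25, his-35, his-41, his-4 and his-3) and above them for 0. Among all tested genes the groups were apart in this way for 7.73% below and 10.2% above. his-67 and his-4 passed the count limit of the test (about 10 counts in at least 3 libraries) through the wild-type libraries alone. Only the wild-type libraries were all above it for his-25 and his-3, and only the mutant libraries for his-73. These counts of members are thus a description and are not read against the shares of all genes. hil-8, his-5, his-2 and his-38, whose mutant libraries lay above the wild type, were under that limit and are not among the 28. A positive log2 fold change was found for 46% of all genes and a negative one for 54%. The smallest adjusted p of a member was that of his-67.

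**Figure D1:**
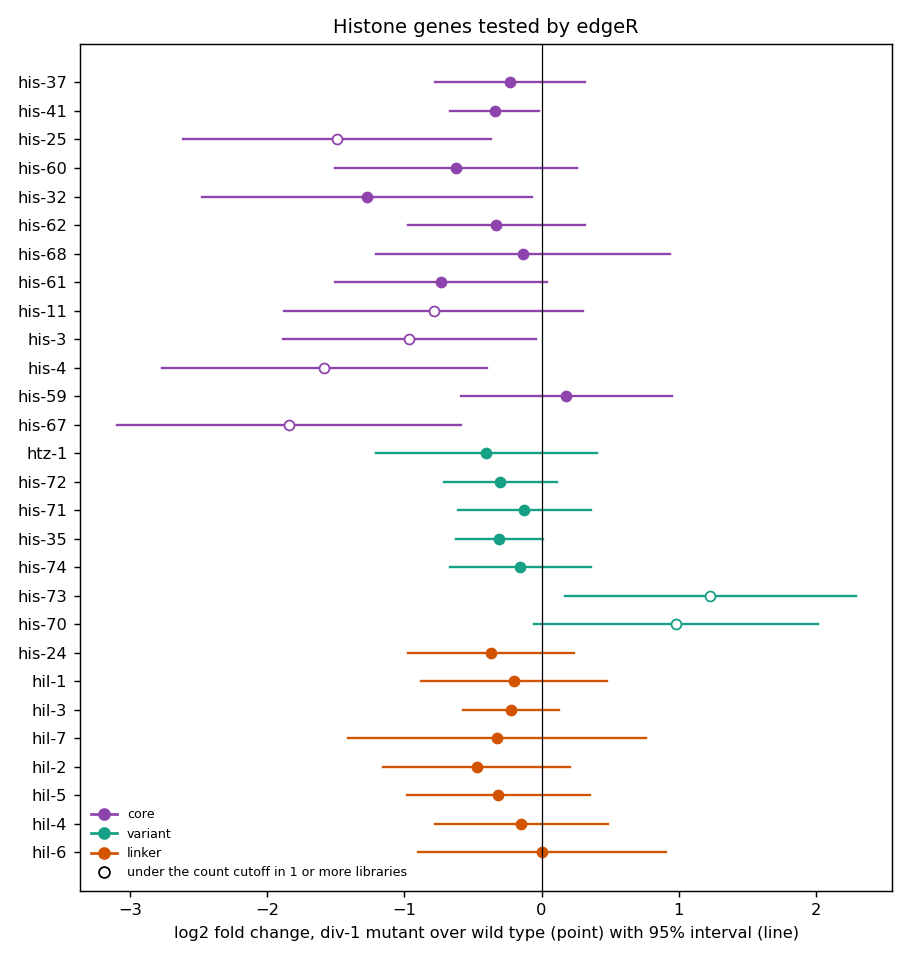
Log2 fold changes of the 28 histone genes tested by edgeR, div-1 mutant over wild type (x axis), with 95% intervals as lines. Open points mark genes under the count limit in at least 1 library. The lowest point is his-67 at -1.84 and the highest is his-73 at 1.23.

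In the WBcel235 annotation of Ensembl release 115, the 64 core genes fall into 12 clusters on chromosomes I, II, IV, V and X, where neighbours at most 20 kb apart were joined. Most lie as head-to-head pairs: 15 pairs join an H2A to an H2B gene with 227 to 327 bases between them, and 14 join an H3 to an H4 gene with 234 to 321 bases. 61 of the 64 core genes are annotated as a single exon without a UTR. The annotated coding lengths are 312 bases for every H4 gene, 411 for every H3 gene, 369 to 372 for H2B and 384 for H2A, apart from his-57 at 444. his-39, of 204 bases, was given no type.

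Counts were spread very unevenly over these genes. The pair his-37 and his-41 held 95.7% of all core histone counts, 32 core genes had no count in any of the 6 libraries, and 19 more had totals of only 2 to 46 counts. By counting error alone, a gene at 0 counts in a library is limited to 0.107 to 0.124 CPM there (3 counts). That limit holds only where reads of the gene could be counted at its own locus. Counts were present for 10 of 15 H3 genes, 9 of 16 H4 genes, 6 of 16 H2A genes and 6 of 16 H2B genes. The cluster of his-49 to his-54 on chromosome V had none in any library. The genes at 0 were not spread evenly either. In the Ensembl annotation, 36 core loci share 1 of 14 symbols with another locus, and 32 of those 36 were at 0, the exceptions being his-11, his-25, his-47 and his-45. Of the 28 core loci with a symbol of their own, 0 were at 0. How reads that match several loci were counted is not given in the sources used here, and its part in these zeros was not tested. The counts of single core genes are therefore uncertain wherever another locus has the same or nearly the same sequence.

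**Figure D2:**
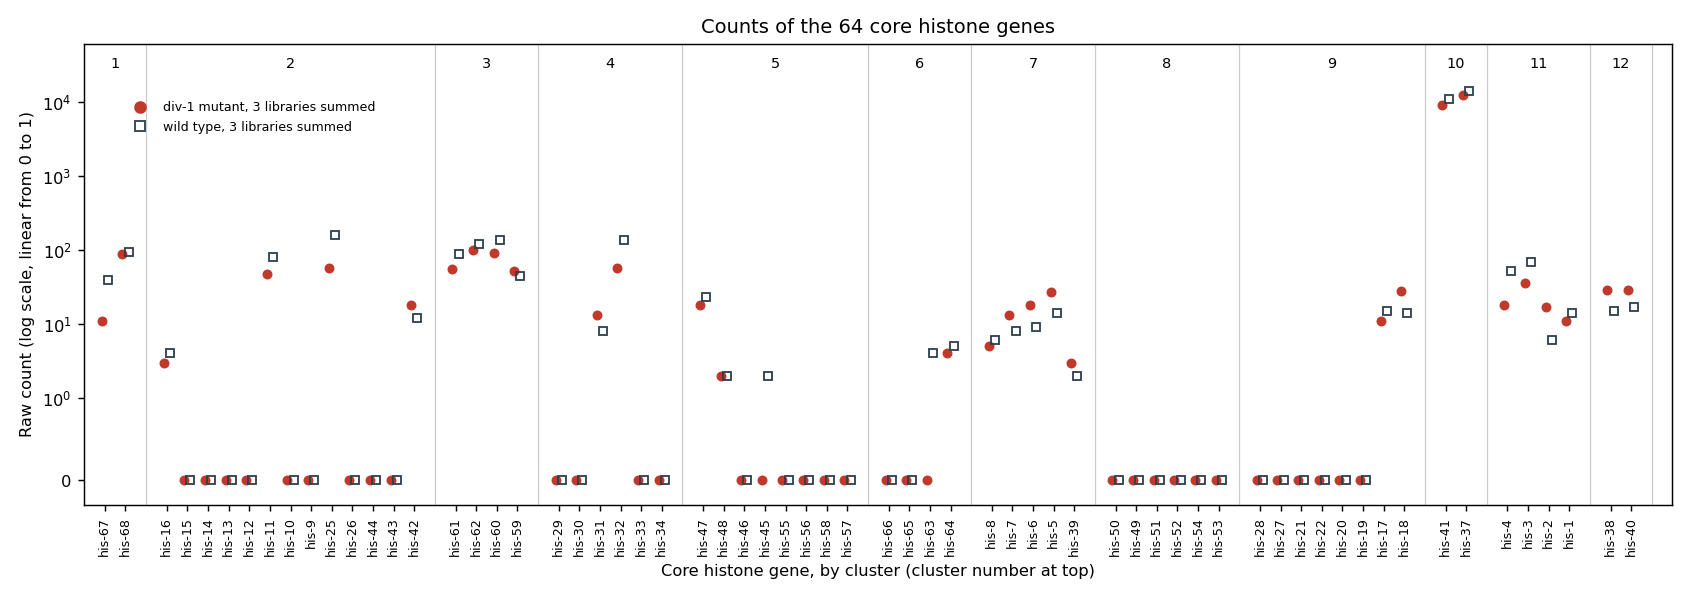
Raw counts of the 64 core histone genes (y axis, log scale above 1 and linear from 0 to 1), summed over the 3 div-1 mutant libraries (filled points) and the 3 wild-type libraries (open squares), in genome order with cluster numbers at the top. his-37 had 12204 counts in the mutant and 13901 counts in the wild type, his-41 had 9036 counts in the mutant and 10940 counts in the wild type, and 32 genes lie at 0 in both.

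his-37, his-41 and the H2A variant gene his-35 lie side by side on chromosome V, and all 3 have annotated UTRs, unlike 61 of the core genes. his-41 encodes an H2B and spans positions 9545536 to 9546264 of that chromosome (WBcel235, plus strand). It stood at 122, 112 and 109 CPM in the mutant libraries and 137, 133 and 166 CPM in the wild-type libraries. Every mutant library lay below every wild-type library. The log2 fold change was -0.34 with a 95% interval of -0.66 to -0.02 (edgeR unadjusted p = 0.0397, adjusted p = 0.429). C50F4.6, a gene that overlaps his-41 on the same strand, was also lower in each mutant library, at 57.8 ± 2.01 CPM in the mutant and 75.9 ± 11.5 CPM in the wild type, and reads of the 2 cannot be told apart where they overlap.

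his-37 encodes an H4 and spans positions 9547105 to 9547607 (WBcel235, plus strand). Its levels were 113, 200.2 and 157 CPM in the mutant and 189, 216 and 145 CPM in the wild type, so the groups overlapped. Mutant library 1 and wild-type library 3 were the lowest of their groups. The log2 fold change was -0.23, with an interval of -0.77 to 0.32 (edgeR adjusted p = 0.779). It ranged from -0.45 without mutant library 2 to -0.04 without mutant library 1, and was -0.10 without wild-type library 2. nstp-10 overlaps his-37 on the other strand, and whether counting used strand is not given in the sources used here. nstp-10 stood at 38.5 ± 3.33 CPM in the mutant and 46.1 ± 4.03 CPM in the wild type.

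his-35 lies at positions 9544659 to 9545288 on the minus strand (WBcel235). It stood at 83.7, 101 and 94.4 CPM in the mutant libraries and 116, 125 and 104 CPM in the wild-type libraries. All mutant values were below all wild-type values, by little between mutant library 2 and wild-type library 3. The log2 fold change was -0.31, with an interval of -0.63 to 0.01 (edgeR adjusted p = 0.486). Summed over these 3 neighbours, the level was 364 ± 47.4 CPM in the mutant and 444 ± 29.8 CPM in the wild type.

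Summed over all 64 core genes, whether tested or not, the level was 245, 324 and 278 CPM in the mutant libraries and 337, 369.6 and 327 CPM in the wild-type libraries. The mutant sum was lower by 0.29 on the log2 scale (log2 ratio of group means -0.29), and the groups did not overlap with 2 of the 3 other scalings but did with upper-quartile factors. This sum reflects mainly his-37 and his-41. Without them it was 10.2, 11.0 and 11.5 CPM in the mutant and 11.4, 20.2 and 15.4 CPM in the wild type. Here the mutant libraries were close together, wild-type library 1 lay among them, and the log2 ratio was -0.52, or -0.30 without wild-type library 2. No test was made of these sums.

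Of the core genes other than his-37 and his-41, 11 passed the count limit of the test, which asks for about 10 counts (0.388 CPM) in at least 3 libraries. For 5 of them (his-67, his-25, his-11, his-3 and his-4) only the wild-type libraries were all above the limit. his-67 and his-4 were above it in 0 mutant libraries and had to be lower in the mutant to some degree, so their values are given as a description. The other 3 were above it in 2 mutant libraries as well. The median log2 fold change of the 13 core genes tested was -0.73, beside -0.03 for all genes tested. For the 8 above the limit in all 6 libraries it was -0.34, with 7 negative and 1 positive. Fitted without the limit, the 32 core genes with any count had 21 negative and 11 positive log2 fold changes, with a median of -0.36.

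his-67, an H4 gene on chromosome I, had 4, 6 and 1 counts in the mutant libraries and 10, 16 and 13 counts in the wild-type libraries. The groups did not overlap. At 0.143 ± 0.105 CPM in the mutant and 0.515 ± 0.101 CPM in the wild type, the log2 fold change was -1.84, with an interval of -3.10 to -0.59 (edgeR adjusted p = 0.236). his-68, the H2A gene paired with it head to head, had 38, 22 and 28 counts in the mutant and 13, 53 and 27 counts in the wild type, and the wild-type values enclosed those of the mutant (log2 fold change -0.14, edgeR adjusted p = 0.940).

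The H3 gene his-25, on chromosome II, had 7, 22 and 28 counts in the mutant and 42, 74 and 41 counts in the wild type. It was lower in each mutant library, most of all in library 1. Its log2 fold change was -1.49, with an interval of -2.62 to -0.37 (edgeR adjusted p = 0.300). his-11, an H2B gene of the same cluster, overlapped between groups, with 9, 15 and 23 counts in the mutant and 19, 42 and 18 counts in the wild type (log2 fold change -0.79, edgeR adjusted p = 0.610). his-11 and his-25 are among the loci that share a symbol in the annotation, so each row may stand for more than its own locus.

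The H2B gene his-4 and the H2A gene his-3 form a head-to-head pair on chromosome V. his-4 had 10, 3 and 5 counts in the mutant and 11, 15 and 26 counts in the wild type (log2 fold change -1.59, interval -2.77 to -0.40, edgeR adjusted p = 0.294). his-3 had 9, 15 and 12 counts in the mutant and 18, 18 and 32 counts in the wild type (log2 fold change -0.97, interval -1.89 to -0.04, edgeR adjusted p = 0.439). For both, all mutant values lay below all wild-type values.

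**Figure D3:**
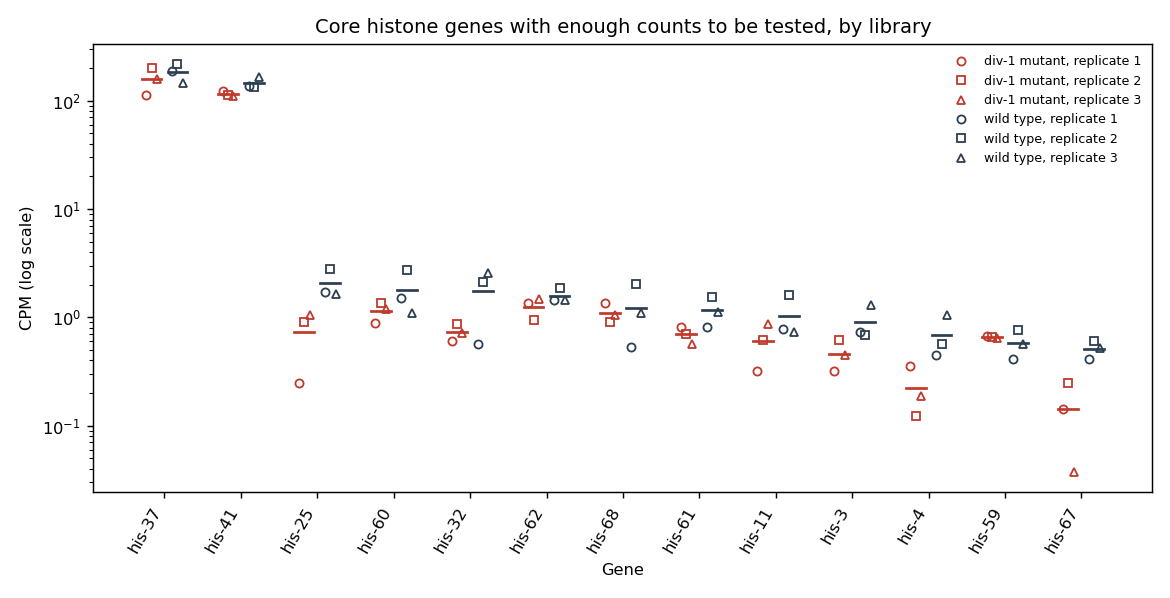
CPM of the 13 core histone genes with enough counts to be tested (y axis, log scale), with div-1 mutant libraries left of wild-type libraries for each gene, a symbol per replicate and a bar at the group mean. his-37 and his-41 lie above 100 CPM in all 6 libraries, and each of the other 11 lies below 3 CPM.

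A further 6 core genes were above the limit in every library. The H3 gene his-32 had 17, 21 and 19 counts in the mutant and 14, 56 and 64 counts in the wild type. The wild-type libraries disagreed, since library 1 lay below every mutant library and the other 2 were far above. Its log2 fold change was -1.27, with an interval of -2.48 to -0.07 (edgeR adjusted p = 0.430). The partner in its head-to-head pair, the H4 gene his-31, named after its values were seen, held too few counts to be tested, with 13 counts in the mutant and 8 counts in the wild type.

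his-59 to his-62 form a compact cluster on chromosome IV, and with his-32 and his-68 they complete this set. The H2A gene his-61 had 23, 17 and 15 counts in the mutant and 20, 40 and 28 counts in the wild type (log2 fold change -0.73, edgeR adjusted p = 0.495). Its neighbour his-62, an H2B gene, had 38, 23 and 39 counts in the mutant and 35, 49 and 36 counts in the wild type (log2 fold change -0.33, edgeR adjusted p = 0.728). Mutant and wild-type values overlapped for both. The H4 gene his-60 had 25, 33 and 32 counts in the mutant and 37, 71 and 27 counts in the wild type (log2 fold change -0.62, edgeR adjusted p = 0.620, and -0.18 without wild-type library 2). The H3 gene his-59 was the 1 tested core gene with a positive log2 fold change, 0.18 (edgeR adjusted p = 0.881), at 19, 16 and 17 counts in the mutant and 10, 20 and 14 counts in the wild type.

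The 19 core genes with counts under the limit were higher in the mutant in sum. They held 249 counts in the mutant and 180 counts in the wild type, or 3.11, 3.09 and 3.28 CPM in the mutant libraries and 2.01, 2.86 and 2.26 CPM in the wild-type libraries. The groups did not overlap under any of the scalings tried. 10 of the 19 had more counts in the mutant, 8 had fewer and 1 had equal counts. his-67, his-25, his-11, his-3 and his-4, for which only the wild-type libraries were all above the limit, are not in this sum. The reverse held for 0 core genes. The direction of this sum therefore follows in part from the limit, and it is given as a description. The 3 with the most counts were his-40, his-38 and his-18. The H3 gene his-40 had 14, 6 and 9 counts in the mutant and 8, 5 and 4 counts in the wild type. The H4 gene his-38, paired with it on chromosome X, had 11, 10 and 8 counts in the mutant and 4, 7 and 4 counts in the wild type, without overlap. The H4 gene his-18 had 11, 7 and 10 counts in the mutant and 3, 8 and 3 counts in the wild type. Besides his-38, the groups were apart for his-5 and his-2, both named after their values were seen. Among all tested genes 10.2% lay higher in this way, a share that covers no gene under the limit. The H4 gene his-5 had 27 counts in mutant libraries together and 14 counts in wild-type libraries, and the H3 gene his-2 had 17 counts in mutant libraries and 6 counts in wild-type libraries.

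By cluster, the sums fell on both sides. The cluster on chromosome II, mostly his-25 and his-11, stood at 0.715, 1.94 and 2.18 CPM in the mutant libraries and 2.66, 4.58 and 2.70 CPM in the wild-type libraries. his-1 to his-4 on chromosome V stood together at 1.04 ± 0.123 CPM in the mutant and 1.86 ± 0.595 CPM in the wild type. Both were lower in every mutant library than in any wild-type library, with log2 ratios of -1.04 for chromosome II and -0.84 for his-1 to his-4. The first became -0.69 without mutant library 1 and the second -0.55 without wild-type library 3, still without overlap. The cluster of his-59 to his-62 was also lower without overlap, at 3.77 ± 0.107 CPM in the mutant and 5.09 ± 1.54 CPM in the wild type, but overlapped with 2 of the 3 other scalings. Without wild-type library 2 its log2 ratio of -0.44 became -0.16.

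A pair of clusters lay higher in the mutant without overlap. his-5 to his-8 with his-39, on chromosome V, held 66 counts in the mutant and 39 counts in the wild type (0.679, 0.700 and 1.13 CPM in mutant libraries, 0.410, 0.534 and 0.604 CPM in wild-type libraries). The log2 ratio was 0.70, and 0.42 without mutant library 3. his-38 and his-40, on chromosome X, held 58 counts in the mutant and 32 counts in the wild type (0.894, 0.659 and 0.640 CPM in mutant libraries, 0.492, 0.458 and 0.322 CPM in wild-type libraries). Of the 11 clusters with counts, 3 were lower and 2 higher without overlap, and the other 6 overlapped. Among all tested genes, taken singly, the groups were apart for 7.73% below and 10.2% above. The clusters are sums, mostly of few counts and with no test of their own, so they are not read against those shares.

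**Figure D4:**
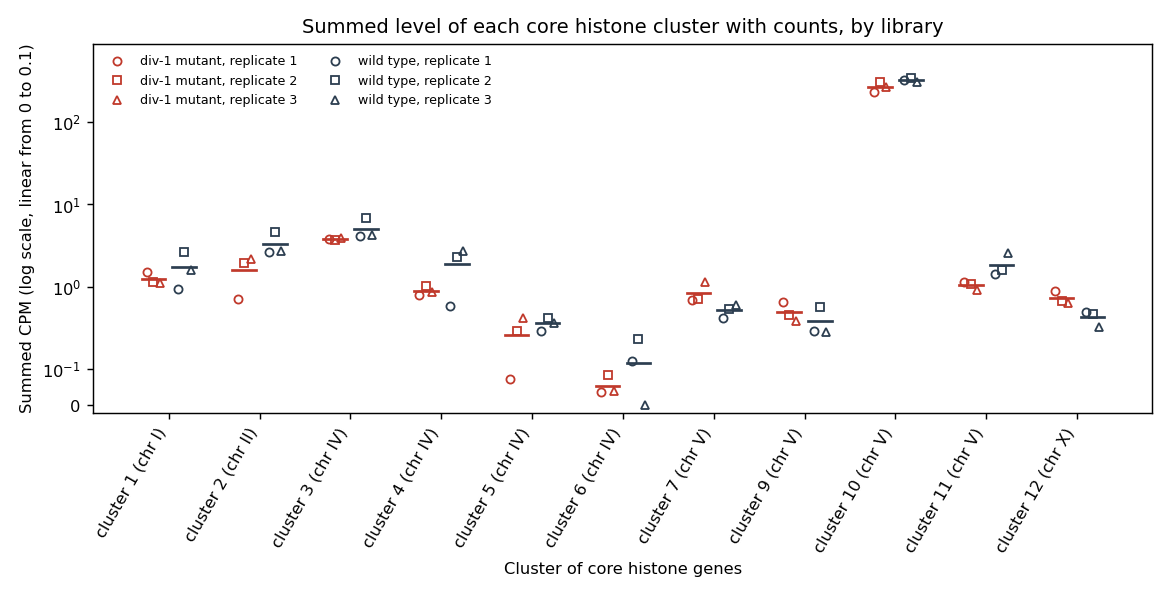
Summed CPM of the 11 core histone clusters with counts (y axis, log scale above 0.1 and linear from 0 to 0.1), with div-1 mutant libraries left of wild-type libraries and a bar at the group mean. Clusters 2, 3 and 11 lie lower and clusters 7 and 12 lie higher in all mutant libraries, and cluster 10 (his-37 and his-41) stands apart at 271 CPM in the mutant and 329 CPM in the wild type.

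By histone type, the sums were lower in the mutant on average for all 4. H2B was at 124, 114 and 112 CPM in the mutant libraries and 139, 137 and 169 CPM in the wild-type libraries, and nearly all of it was his-41. The groups did not overlap for H2B, except when only library size was used for scaling. H4 overlapped, at 160 ± 43.8 CPM in the mutant and 187 ± 36.8 CPM in the wild type, and nearly all of it was his-37. H3 and H2A have no such abundant gene. H3 stood at 2.75, 3.46 and 3.69 CPM in the mutant libraries and 3.60, 6.64 and 5.56 CPM in the wild-type libraries. H2A stood at 2.70 ± 0.0474 CPM in the mutant and 3.74 ± 1.16 CPM in the wild type. Wild-type library 1 lay within or below the mutant values for both types. For H4 without his-37 the log2 ratio of -0.24 changed sign when 1 library was left out (-0.41 to 0.12 over the settings tried).

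Variant and linker genes were far better covered, and all 18 had at least 1 count. Levels between genes were set side by side per kb of annotated exon, which is too short for a gene annotated without UTRs. his-24 was the highest, at 514 ± 69.4 CPM per kb in the mutant and 663 ± 239 CPM per kb in the wild type. his-72, htz-1, hil-7, hil-1 and his-71 followed at 293 to 361 CPM per kb in the mutant and 339 to 444 CPM per kb in the wild type, and these neighbours did not differ beyond their spread. On the same scale his-37 stood at 366 ± 101 CPM per kb in the mutant and 428 ± 83.3 CPM per kb in the wild type, just above that range in the mutant and within it in the wild type. his-41 was at 222 ± 12.6 CPM per kb in the mutant and 282 ± 34.6 CPM per kb in the wild type. hil-3, hil-2 and his-35 lay near his-41, and hil-5, hil-4 and his-74 stood at 8.26 to 11.8 CPM per kb in the mutant and 9.19 to 14.7 CPM per kb in the wild type.

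htz-1 encodes H2A.Z, the variant placed mainly at promoters. It stood at 270.0, 189 and 186 CPM in the mutant and 172, 228 and 453 CPM in the wild type. Wild-type library 3 was the highest of all 6, and the groups overlapped. The log2 fold change was -0.40, with an interval of -1.21 to 0.40 (edgeR adjusted p = 0.736), and it was 0.10 without wild-type library 3.

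his-72 and his-71 encode H3.3, the replacement form of H3. his-72 stood at 243, 229.8 and 217 CPM in the mutant and 229, 272 and 349 CPM in the wild type (log2 fold change -0.30, interval -0.71 to 0.11, edgeR adjusted p = 0.609). his-71 stood at 137, 219 and 194 CPM in the mutant and 198, 235 and 168 CPM in the wild type (log2 fold change -0.12, interval -0.61 to 0.36, edgeR adjusted p = 0.869). The groups overlapped for both genes. Their order within a library was not fixed: his-72 counts were 1.77, 1.05 and 1.12 times those of his-71 in the mutant libraries and 1.16, 1.16 and 2.08 times in the wild-type libraries, with the highest ratios in mutant library 1 and wild-type library 3. Together they stood at 414 ± 34.4 CPM in the mutant and 483 ± 48.7 CPM in the wild type.

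The other H3-like variant genes were low. his-74 stood at 5.11, 5.23 and 4.03 CPM in the mutant and 4.30, 6.37 and 5.32 CPM in the wild type, with overlap (log2 fold change -0.15, edgeR adjusted p = 0.849). his-70 had 18, 9 and 15 counts in the mutant and 6, 4 and 10 counts in the wild type, and mutant library 2 lay within the wild-type values (log2 fold change 0.98, interval -0.06 to 2.02, edgeR adjusted p = 0.495). his-69, next to his-70 on chromosome III, was not tested, with 0, 3 and 3 counts in the mutant and 6, 3 and 2 counts in the wild type.

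his-73, annotated with a coding length of 141 bases and given no type here, had the highest log2 fold change of the 28 members tested. It had 23, 11 and 28 counts in the mutant and 6, 13 and 6 counts in the wild type, and mutant library 2 lay below wild-type library 2. The log2 fold change was 1.23, with an interval of 0.17 to 2.29 (edgeR unadjusted p = 0.0283, adjusted p = 0.382). It was above the count limit in all mutant libraries and in wild-type library 2. W09H1.4 overlaps it on the same strand and had 43, 15 and 23 counts in the mutant and 17, 24 and 10 counts in the wild type, so reads of the 2 cannot be told apart where they overlap. htas-1, an H2A of sperm, had 3 counts in the mutant and 1 count in the wild type over all libraries.

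No linker histone gene passed the test, and libraries of 1 group often lay far apart. his-24, which encodes an H1, stood at 548, 438 and 436 CPM in the mutant and 419, 563 and 853 CPM in the wild type. Wild-type library 3 was the highest and wild-type library 1 the lowest of all 6. The log2 fold change was -0.37, with an interval of -0.98 to 0.24 (edgeR adjusted p = 0.673), and it was -0.06 without wild-type library 3. hil-1, another abundant H1 gene, stood at 183, 368 and 303 CPM in the mutant and 272, 436 and 272 CPM in the wild type (log2 fold change -0.20, interval -0.88 to 0.48, edgeR adjusted p = 0.852). Here mutant library 1 was the lowest of all. his-24 counts were thus 3.00, 1.19 and 1.44 times those of hil-1 in the mutant libraries and 1.54, 1.29 and 3.14 times in the wild-type libraries.

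hil-3 stood at 189.6, 206 and 183 CPM in the mutant and 189.6, 235 and 250.4 CPM in the wild type (log2 fold change -0.22, interval -0.57 to 0.13, edgeR adjusted p = 0.656). hil-7 stood at 259, 121 and 143 CPM in the mutant and 133, 132 and 391 CPM in the wild type (log2 fold change -0.33, edgeR adjusted p = 0.849). hil-2 stood at 145, 117 and 117 CPM in the mutant and 110.4, 154 and 261 CPM in the wild type (log2 fold change -0.47, edgeR adjusted p = 0.627). For all 3 the groups overlapped, and mutant library 1 and wild-type library 3 were each the highest of their group for hil-7 and hil-2. Without wild-type library 3, hil-7 had a log2 fold change of 0.39 and hil-2 one of -0.07.

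Among linkers of low level, hil-5 stood at 12.0, 8.85 and 9.79 CPM in the mutant and 7.46, 14.8 and 15.9 CPM in the wild type (log2 fold change -0.32, edgeR adjusted p = 0.746). hil-4 stood at 10.1, 8.85 and 8.47 CPM in the mutant and 6.10, 11.7 and 12.6 CPM in the wild type (log2 fold change -0.15, edgeR adjusted p = 0.884). In both, the mutant libraries lay within the span of the wild-type libraries. hil-6 had 31, 26 and 31 counts in the mutant and 14, 28 and 42 counts in the wild type, again with the mutant inside the wild-type span (log2 fold change 0.01, edgeR adjusted p = 0.998).

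hil-8 was the 1 variant or linker gene whose mutant libraries all lay above the wild type. Of all genes tested 10.2% lay higher in this way, but that share covers no gene under the count limit, such as hil-8. This gene had 10, 12 and 13 counts in the mutant and 5, 2 and 1 counts in the wild type. At 0.447 ± 0.0776 CPM in the mutant and 0.107 ± 0.0865 CPM in the wild type it missed the count limit, which 2 libraries passed. Fitted without the limit its log2 fold change was 2.00 (edgeR unadjusted p = 0.00564, adjusted p = 0.221).

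**Figure D5:**
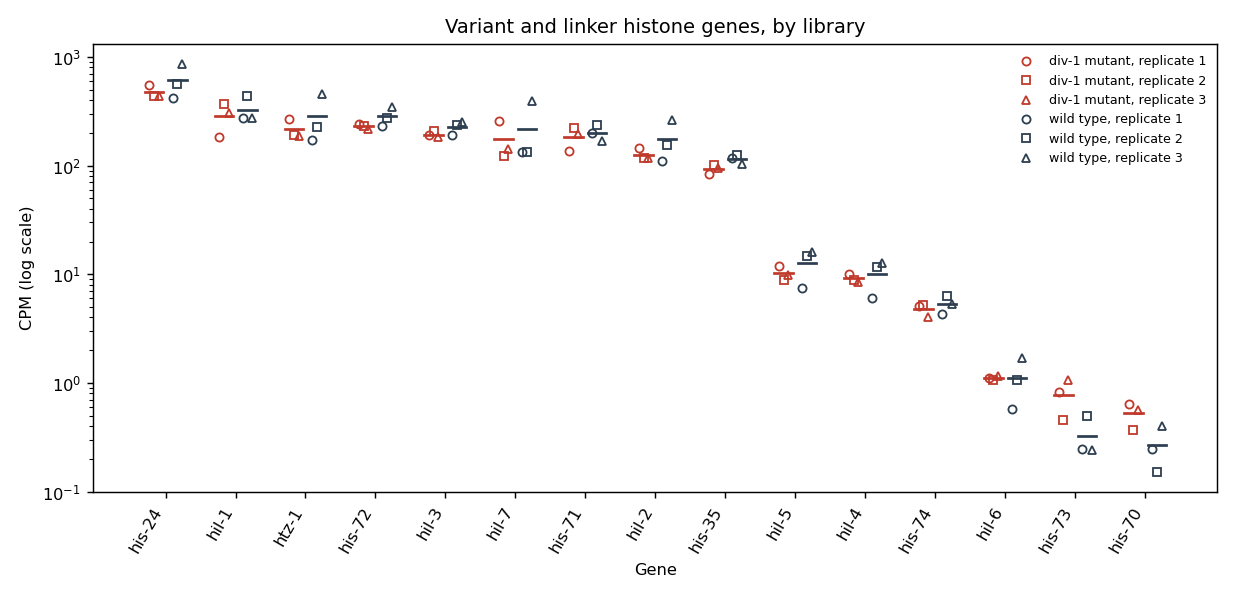
CPM of the 15 variant and linker histone genes tested (y axis, log scale), with div-1 mutant libraries left of wild-type libraries for each gene, a symbol per replicate and a bar at the group mean. Wild-type replicate 3 lies above the other libraries for his-24, htz-1, hil-7 and hil-2, and the groups overlap for all 15 genes except his-35.

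Summed over all 18, variants and linkers stood at 2089, 2015 and 1899 CPM in the mutant libraries and 1860.4, 2415 and 3136 CPM in the wild-type libraries. The wild-type libraries enclosed those of the mutant. The log2 ratio was -0.30, against -0.29 for the core sum, and was -0.10 without wild-type library 3. The median log2 fold change of the 15 tested was -0.22, beside -0.03 for all genes. The core sum was 0.117, 0.161 and 0.147 times the variant and linker sum in the mutant libraries and 0.181, 0.153 and 0.104 times in the wild-type libraries. These ratios overlapped, with mutant library 1 and wild-type library 3 the lowest of their groups.

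Mutant library 1 and wild-type library 3 were often the highest or the lowest of their groups, in histone genes about as often as in all genes. Of the 28 tested members, 10 were at their group's highest in both mutant library 1 and wild-type library 3 (hil-5, his-70, his-72, htz-1, hil-2, hil-7, hil-4, his-24, his-41 and his-4), where 30.7% of all tested genes were. In 7 members both libraries were the lowest of their group (his-35, hil-1, his-71, his-11, his-25, his-60 and his-37), where 27.8% of all genes were. Across all genes, deviations from the group mean in these 2 libraries had a correlation of 0.622. That was the highest of all pairings of a mutant with a wild-type library, beside 0.504 for mutant library 2 and wild-type library 2. Deviations of 3 libraries from their own mean depend on each other, so the value cannot settle whether the 2 libraries share a trait. The first principal component, with 42.05% of the variance, ran from mutant library 1 (55.3) to wild-type libraries 2 and 1 (-34.3 and -36.4). Wild-type library 3 lay between them at 10.2. On the second component, with 30.25% of the variance, mutant library 1 stood at 5.09 and wild-type library 3 at 41.9. What mutant library 1 and wild-type library 3 share was not tested. Without both, the log2 ratio was -0.23 for the core sum, and 0 histone members were called.

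Genes that act on histones were described from lists, with none called in any. The 5 genes of histone messenger processing had a median log2 fold change of -0.13. Among them cdl-1, which encodes the stem-loop binding protein, stood at 169, 99.0 and 106 CPM in the mutant and 83.0, 112 and 151 CPM in the wild type, with overlap (log2 fold change 0.11, edgeR adjusted p = 0.917). The smallest p values of this list were those of ekl-1 (log2 fold change -0.18, edgeR adjusted p = 0.702), csr-1, an Argonaute (-0.24, edgeR adjusted p = 0.707), and drh-3, a helicase (-0.13, edgeR adjusted p = 0.770). The centromeric H3 genes lie outside the name rule. hcp-3 stood at 16.9 ± 2.44 CPM in the mutant and 16.2 ± 4.77 CPM in the wild type, and cpar-1 at 1.18 ± 0.372 CPM in the mutant and 1.20 ± 0.209 CPM in the wild type.

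Of 16 genes of histone chaperones and deposition, 4 had a positive log2 fold change, where 46% of all genes did, and the median was -0.10. Their summed level was 1503 to 1584 CPM in mutant libraries and 1645 to 1770 CPM in wild-type libraries, with no test made. For 2 of them, rba-1 and ssl-1 (named after its values were seen), every mutant library lay below every wild-type library, where 7.73% of all genes tested did. rba-1, an RbAp46/48-type histone binding protein, stood at 35.1 ± 0.949 CPM in the mutant and 44.6 ± 0.662 CPM in the wild type. All mutant libraries were lower, with little spread in either group, and the log2 fold change was -0.35 (edgeR unadjusted p = 0.0161, adjusted p = 0.302). For zhit-1 the log2 fold change stood at -0.31 (edgeR adjusted p = 0.672), and for nap-1, a nucleosome assembly protein, at -0.25 (edgeR adjusted p = 0.734).

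S-phase genes had log2 fold changes of both signs. Of 24 listed, 23 were matched to a row, some of them under a sequence name, and were tested. Of these, 14 had a positive log2 fold change, where 46% of all genes tested did, and the median was 0.09. rnr-1, the large subunit of ribonucleotide reductase, which makes DNA precursors, stood at 209.8, 110.2 and 128 CPM in the mutant and 61.2, 70.5 and 73.2 CPM in the wild type. rnr-2, the small subunit, stood at 185, 131 and 127 CPM in the mutant and 64.7, 100.2 and 79.8 CPM in the wild type. For both, every mutant library lay above every wild-type library, with log2 fold changes of 1.13 (edgeR adjusted p = 0.0906) and 0.86 (edgeR adjusted p = 0.149). These were the 2 of 23 genes that lay higher in this way, where 10.2% of all genes tested did. pola-1, the catalytic subunit of DNA polymerase alpha, overlapped between groups (log2 fold change 0.37, edgeR adjusted p = 0.611). How these genes and the core histones differ in their changes was not tested.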

How the data were processed

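The values are raw counts of reads per row, in 1 table that the authors deposited and did not normalise. Per the submitters' processing notes, the tools were TopHat2 2.1.0, with featureCounts 1.5.0, and DESeq2 1.8.1. Not given in the sources used here were the genome build, annotation, use of strand, treatment of reads with several matches and any poly(A) selection. The titles call the samples mRNA without naming a selection step. Per the labels' protocols, total RNA was ligated in a small RNA kit and inserts were short, so family members that share sequence may share or lose reads.

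Only the 45836 gene rows of 99774 set library sizes; 53925 repeat rows and 13 construct rows were left out. Groups came from the titles. edgeR 4.0.16 in R 4.3.3 was fitted on all 6 libraries with TMM factors, its default filter by group and a robust quasi-likelihood test, two-sided, adjusted by Benjamini-Hochberg over all genes that passed. The code was tested on simulated data. Sums, medians and ratios carry no test. Symbols were matched through RefSeq and coordinates taken from Ensembl release 115 (WBcel235). Replicates are separate samples only as far as the labels say, and limits set by a count of 0 cover counting error only, whereas the edgeR intervals include the spread between libraries.

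The histone family as the subject, its gene lists and the markers were chosen with earlier results of these data known. The members then follow from names alone. Named are every variant or linker gene with a count, every core gene that passed the filter, the 3 others with most counts, div-1, hcp-3, cpar-1, cdl-1, and the called or else 3 leading genes of each list. Alternatives were other scalings, 2 other filters, left-out libraries, a replicate block, protein-coding genes alone and DESeq2 1.42.0.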

Additional observations from a re-analysis of the deposited data

How the results depend on the processing

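The count of histone members called was 0 under all 15 alternatives. The number of genes called in the whole table was 146, and was not stable: 36 to 116 with 1 library left out, 306 without the count filter, 483 with DESeq2 and 241 without mutant library 1 and wild-type library 3 together (an alternative added after seeing the data). The labels do not say whether replicate numbers mark samples handled together. Deviations of same-numbered libraries had correlations of -0.22, 0.504 and -0.31. These cannot settle it, since deviations of 3 libraries from their own mean depend on each other. With the replicate block 52 genes were called, again with 0 histone members. The median log2 fold change stayed negative for core genes tested (-0.75 to -0.32) and for variants and linkers (-0.33 to -0.07). The log2 ratio of the core sum was -0.40 to -0.20 with libraries left out and -0.52 without his-37 and his-41, a setting added after seeing the data.

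Of 410 fits of single members, 0 passed the threshold and 15 changed sign, in 8 members with main values near 0 or wide intervals. With 1 library left out, the range of the log2 fold change was -0.67 to 0.098 for htz-1, -0.73 to 0.389 for hil-7 and -0.41 to 0.032 for hil-4, each positive without wild-type library 3. It was -0.43 to 0.060 for hil-1 and -0.28 to 0.044 for his-71, both positive without mutant library 1 or wild-type library 2, and -0.49 to 0.444 for his-68, positive without wild-type library 2. For his-59 it was -0.017 (without wild-type library 1) to 0.428, and for hil-6 -0.31 to 0.429, with -0.0011 under DESeq2's scaling, -0.0197 without the filter and -0.0187 with DESeq2. With 1 library left out, the log2 fold change of 20 of 28 members moved by over 1.5 times, and that of 8 (his-73, his-70, his-35, his-67, his-25, his-32, his-41 and his-4) did not. The cause was not tested.

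The planned count of sequence windows unique to each member was not run, since no genome sequence was used here. Of the 64 core genes, 51 could not be tested: 32 had no count and 19 had 2 to 46 counts over 6 libraries.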
